A study of Saccharomyces cerevisiae with 20 samples.

Results

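The 36 genes described here encode the enzymes that carry glucose to pyruvate in budding yeast, and on to ethanol, acetate, acetyl-CoA or glycerol. They were chosen by name and not by a threshold on their level, with earlier results of these data known. They are 36 of the 7127 genes in the count table. All 36 passed the filter on low counts. In Saccharomyces cerevisiae growing on glucose, glycolysis splits the sugar into pyruvate, pyruvate decarboxylase and alcohol dehydrogenase turn most of the pyruvate into ethanol, and the glycerol branch reoxidises surplus NADH. Aldehyde dehydrogenases and acetyl-CoA synthetases draw acetaldehyde towards acetate and acetyl-CoA. Most steps have isozymes, enzymes for the same reaction whose genes can answer differently to glucose, ethanol, osmotic stress or metal supply. The members were therefore compared isozyme by isozyme.

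The series measured messenger RNA in 5 strains with 4 libraries each, 20 in all, to describe how transcript levels vary between strains in common use. All were grown untreated at 30 °C in synthetic complete glucose medium and harvested in early exponential phase. BY4741, of the S288C background, is labelled MATa with his3Delta1, leu2Delta0, met15Delta0 and ura3Delta0. CEN.PK2, used in physiology, is labelled MATa with his3Delta1, leu2-3_112, ura3-52 and trp1-289, and also carries MAL2-8c and SUC2. W303, another common background, is also labelled MATa, with can1-100, his3-11,15, ura3-1, trp1-1 and a mutant leu2 allele. RM11-1a, derived from a vineyard isolate, is labelled MATa with leu2Delta0, ura3Delta0 and HO::kanMX. D273-10B, used in work on mitochondria, is the only strain labelled MATAlpha, and mal is the only allele given. Strain therefore cannot be told apart from mating type for D273-10B or from the auxotrophies of the others. Each strain is 1 line. The labels do not say that the 4 libraries of a strain came from separate cultures, so the spread between them may be technical. The p-values of single genes rest on this spread. Those of isozyme ratios rest on the spread over all 20 libraries, which also includes differences among the other strains. The cultures are bulk samples, in which fewer expressing cells and less RNA per cell cannot be told apart.

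Libraries held 1311322 to 22979469 counts. The mating-type transcripts went with the labels in all 20 libraries. LEU2 was at 0 in every BY4741 and RM11-1a library. URA3, also labelled as deleted in both, stood at 0.334 to 2.79 normalised CPM in BY4741 and, in RM11-1a replicates 1 to 4, at 16.6, 10.8, 0.935 and 0.925, from 102, 75, 11 and 9 counts. In the other 3 strains it stood at 98.3 to 330.1 in D273-10B, 370.3 to 1208 in CEN.PK2 and 311 to 662 in W303. The library labelled RM11-1a replicate 2 went against its label at HO, which stood at 58.6 normalised CPM against 0.0850 to 0.326 in the other 3 libraries of that strain. It also stood apart at MET17, the gene labelled met15Delta0 in BY4741. MET17 had 2276, 515, 2274 and 3082 counts in RM11-1a replicates 1 to 4 and 0 to 3 in BY4741. ZPS1 had 525, 18310, 679 and 547 counts in RM11-1a and 5372 to 32677 in BY4741. Which strain this library holds was not tested. Results for RM11-1a are therefore also given without replicate 2. The samples' library numbers begin with 66, 69 or 74, and what these mark is not stated. The 3 groups hold the strains unevenly, so calls lost within 1 group, or with the group as a block in the model, are given with each gene or, for RM11-1a, together. RM11-1a has no library from 69, so a strain is set there against the mean of the other 3 strains. D273-10B has 1 library from 66. Normalised CPM here means reads per 1000000 counts of a library after TMM scaling, which evens out differences in composition between libraries. The members together took 10.4% ± 0.775 of counts in BY4741, 9.77% ± 2.79 in CEN.PK2, 8.15% ± 4.34 in D273-10B, 11.3% ± 1.06 in RM11-1a and 11.0% ± 1.05 in W303 (mean ± SD, n = 4). Without replicate 2 RM11-1a stood at 11.8% ± 0.760 (n = 3). The lowest shares were 4.08% in D273-10B replicate 3 and 5.59% in CEN.PK2 replicate 4, and the highest was 14.2% in D273-10B replicate 1. In CEN.PK2 replicate 4 the 14 members with coding sequences under 1200 bases deviated from their mean over all libraries by a median of 0.14 on the log2 scale, and the 22 longer ones by -1.47. In D273-10B these medians were -0.44 and -1.29 in replicate 3 and -0.11 and -0.82 in replicate 4, while in replicate 1 they went the other way, at -0.38 and 0.60. This division by length was chosen after the values were seen, and a gene length correction is given below wherever it ended a call. Over all members the rank correlation of deviation with length was -0.30 in CEN.PK2 replicate 4. In D273-10B replicates 1, 3 and 4 it was 0.36, -0.09 and -0.37.

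Among the 36 members 13, or 36.1%, differed among the 5 strains, against 28.4% of all 6119 genes tested (edgeR quasi-likelihood F test, Benjamini-Hochberg adjusted p under 0.05). They were HXK1, TDH1, PYK2, ADH1, ADH2, ADH3, ADH4, ALD2, ALD3, ALD4, ALD5, GPD1 and GPP2. The 5 glycolytic steps with a single gene, PGI1, FBA1, TPI1, PGK1 and GPM1, were not called. TDH3, ENO2, CDC19 and PDC1, each the most abundant of its family, were not called either, whereas ADH1, the most abundant ADH transcript on average in all strains but D273-10B, and GPD1, the more abundant of its pair on average in every strain, were. A missed threshold does not show that these genes were equal: the median within-strain SD was 0.64 on the log2 scale over members and 0.54 over all genes tested. Without D273-10B replicate 1, the count of members called rose to 21, with 49.8% of all genes called. Without RM11-1a replicate 2 the same 13 were called, with 29.1% of all genes.

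Each strain was then set against the mean of the other 4. In RM11-1a 8 members were higher, where 6.39% of all genes were called higher, and 0 were lower, where 4.51% were called lower. The median log2 difference over the 36 members was 0.18 in RM11-1a and -0.09 over all genes. In D273-10B 1 member was higher, with 13.5% of all genes called higher, and 8 were lower, with 4.66% called lower. That split changed with the libraries used. Within libraries numbered from 69, which include 3 of D273-10B, 3 were higher and 15 lower, with 35.3% of all genes called in either direction. The mean there is of BY4741, CEN.PK2 and W303, since RM11-1a has no library from 69. Within those from 66, where D273-10B has replicate 1 alone, 8 were higher and 4 lower, with 18.3% of all genes called. In the fit of all 20 libraries its median was -0.38 over members and 0.11 over all genes. BY4741 had 2 members higher (2.26% of all genes) and 0 lower (2.58%), with medians of 0.02 and -0.04. CEN.PK2 had 1 higher (3.5%) and 2 lower (1.37%), with medians of -0.10 and 0.00. W303 had 1 higher (2.66%) and 1 lower (1.45%), with medians of 0.10 and -0.01. These 5 contrasts share libraries, so they are not independent of each other. A strain high for a gene raises the mean that the others are set against. The heatmap of all members shows where the calls fall along the pathway.

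**Figure D1:**
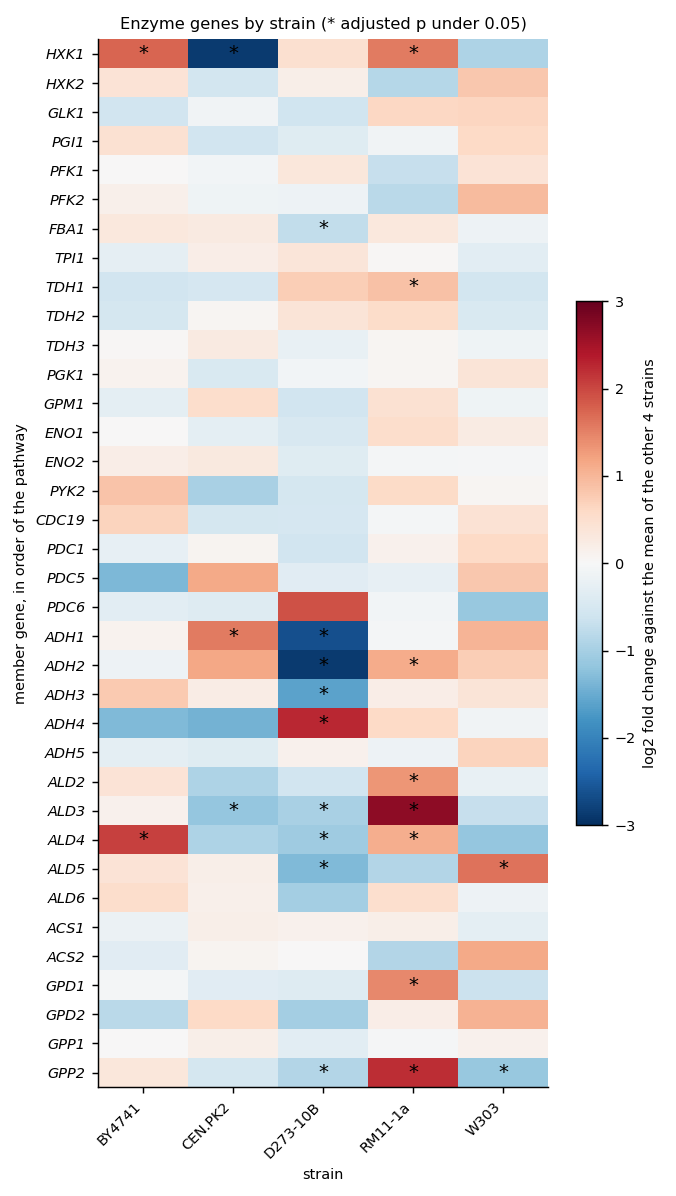
Log2 fold change of each of the 36 members (rows, in pathway order) in each strain (columns) against the mean of the other 4 strains; red is higher, blue is lower, and an asterisk marks an edgeR adjusted p under 0.05. Apart from FBA1 in D273-10B and TDH1 in RM11-1a, the calls sit in HXK1 at the top and in the ADH, ALD, GPD and GPP rows. The colours of D273-10B and RM11-1a are opposite for ADH2, ALD3 and GPP2, where the mean each is set against includes the other.

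Single libraries moved these counts, and the share of all genes called often moved with them. The count in D273-10B, 9 in all with 18.1% of all genes, became 17 without its replicate 1 (32.1% of all genes), 4 without replicate 2 (7.98%) and 4 without replicate 3 (10.2%). That in RM11-1a fell from 8, with 10.9% of all genes, to 4 without replicate 3 (4.46%) and to 3 without replicate 4 (4.91%). For BY4741 it went from 2, with 4.84% of all genes, to 1 without its own replicate 1 (1.82%) or 2 (1.97%), and to 4 without CEN.PK2 replicate 4 (5.16%) or D273-10B replicate 1 (9.98%). In CEN.PK2 it went from 3, with 4.87% of all genes, to 5 without its replicate 2 (5.28%) or without D273-10B replicate 1 (5.58%) or 3 (5.37%). For W303 it went from 2, with 4.12% of all genes, to 1 without any of its own 4 libraries (1.39% to 2.43%), to 4 without CEN.PK2 replicate 2 (7.19%) and to 7 without D273-10B replicate 1 (17.2%).

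**Figure D2:**
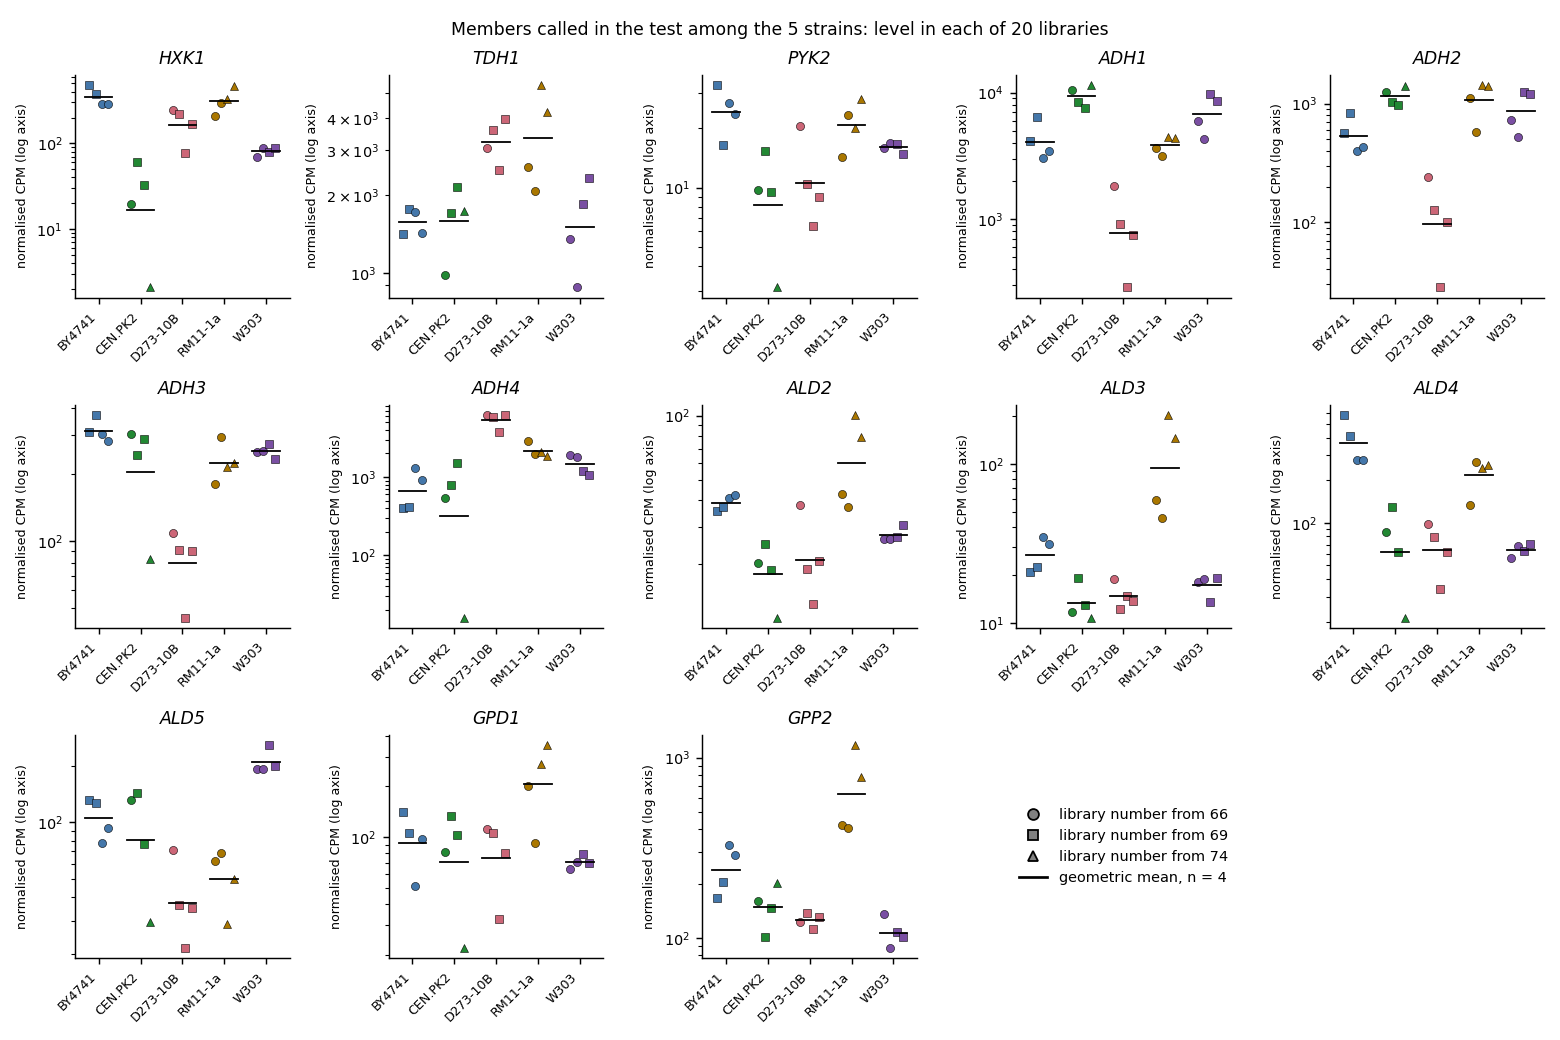
Normalised CPM (log axis) of the 13 members called among the 5 strains, 1 point per library with the strain's geometric mean as a line (n = 4) and the marker shape giving the leading digits of the library number. D273-10B libraries lie below all others for ADH1 and ADH2 and above all others for ADH4, W303 lies above all others for ALD5, and RM11-1a above all others for ALD3 and GPP2.

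Glucose enters glycolysis through 3 phosphorylating enzymes: hexokinase 2 (HXK2), the main one on glucose and itself a glucose-repression regulator, hexokinase 1 (HXK1) and glucokinase (GLK1), both of which are repressed by glucose. HXK1 (YFR053C) differed among strains (adjusted p = 0.000940). In replicates 1 to 4 it stood in BY4741 at 484, 373, 289 and 292, in CEN.PK2 at 19.5, 60.0, 32.6 and 2.08, in D273-10B at 246, 223, 77.7 and 168, in RM11-1a at 209, 294, 327 and 466, and in W303 at 69.4, 89.0, 79.3 and 88.7 normalised CPM. All 4 CEN.PK2 libraries lay below the other 16, and W303, whose range held D273-10B replicate 3, had the next lowest mean. CEN.PK2 was lower by a log2 fold change of -2.86 (SE 0.54, adjusted p = 0.00320). BY4741 was higher by 1.75 (SE 0.40, adjusted p = 0.0146) and RM11-1a by 1.56 (SE 0.40, adjusted p = 0.0144). The call in BY4741 was lost when any 1 of BY4741 replicates 1 and 2 was left out (adjusted p = 0.0526 to 0.0875). The call in RM11-1a was lost when any 1 of RM11-1a replicates 3 and 4 was left out (adjusted p = 0.0557 to 0.103). CEN.PK2 replicate 4, at 2.08, sits far below the rest of its strain, and the CEN.PK2 call was kept when it or any other 1 library was left out. Within libraries from 69 it did not pass (-1.97, adjusted p = 0.0836, range over its alternatives 6.99e-09 to 0.0836).

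HXK2 stood in BY4741 at 537, 686, 693 and 995, in CEN.PK2 at 546, 665, 407 and 82.9, in D273-10B at 1564, 482, 193 and 315, in RM11-1a at 466, 547, 121 and 312, and in W303 at 863, 1104, 822 and 826 normalised CPM. Strains overlapped for HXK2 and no contrast was called. Within a library the ratio of HXK1 to HXK2, as reads per kilobase of coding sequence, does not depend on the scaling between libraries. In CEN.PK2 it was 0.0360, 0.0909, 0.0803 and 0.0257. W303 had 0.0807, 0.0808, 0.0969 and 0.108. BY4741 had 0.903, 0.545, 0.418 and 0.294 and D273-10B had 0.157, 0.463, 0.404 and 0.535. In RM11-1a it was 0.449, 0.538, 2.71 and 1.495, so that HXK1 exceeded HXK2 in 2 libraries of that strain and in no other library. CEN.PK2 was below the other strains by a log2 difference of -2.80 (SD within the strain 0.89, adjusted p = 0.0196) and RM11-1a above by 2.56 (SD within the strain 1.23, adjusted p = 0.0431), by an exact two-sided permutation test over libraries adjusted over 95 tests. The CEN.PK2 call was lost when any 1 of CEN.PK2 replicates 1 and 4 was left out (adjusted p = 0.0582 to 0.0751). The RM11-1a call was lost when any 1 of CEN.PK2 replicates 1, 3 and 4, D273-10B replicates 2 and 4, RM11-1a replicates 3 and 4 and W303 replicates 2, 3 and 4 was left out (adjusted p = 0.0504 to 0.142), and with the library-number group as a block it did not pass (2.22, adjusted p = 0.0640, range over its alternatives 0.0229 to 0.142). GLK1 ranged from 2.68 to 236 normalised CPM with no strain called, and it overlaps the open reading frame YCL042W on the same strand, with which it may share reads.

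Of the 19 isozyme ratios tested in each of 5 strains, 17 of the 95 tests passed the adjusted threshold of 0.05, over 12 ratios. The 19 include PFK1/PFK2, a ratio of subunits of the same enzyme. The smallest unadjusted p that 4 of 20 libraries allow is 0.000206. The exact test takes the 20 libraries as interchangeable, so its spread includes differences among the other strains. The count of 17 fell to 8 without CEN.PK2 replicate 4, to 10 without D273-10B replicate 2 and to 11 without D273-10B replicate 4. Within libraries from 69, where the exact test has few choices of libraries, 0 passed.

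**Figure D3:**
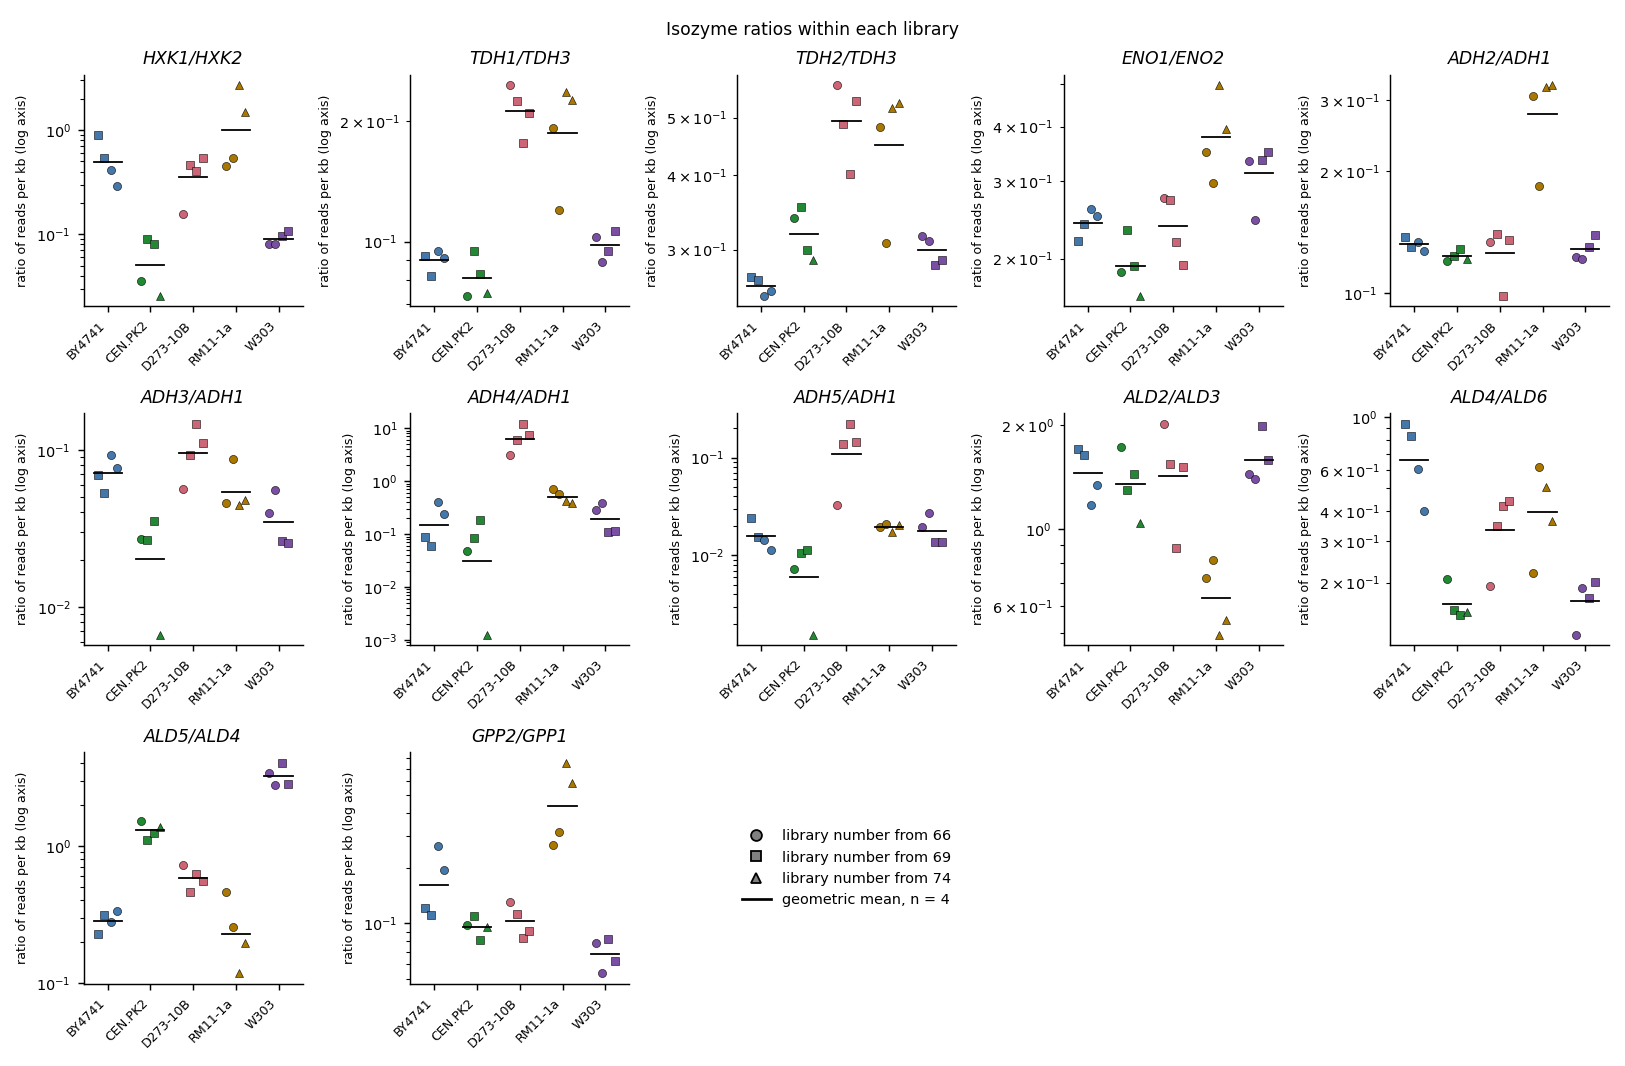
Ratio of reads per kilobase between isozymes within each library (log axis), for the 12 ratios called in at least 1 strain; points are libraries, lines are geometric means (n = 4), and the marker shape gives the leading digits of the library number. ADH4/ADH1 is above 1 only in D273-10B, ADH2/ADH1 is highest in RM11-1a, ALD5/ALD4 is highest in W303, and ALD2/ALD3 is lowest in RM11-1a.

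The steps in the middle of glycolysis gave few calls, although some varied widely between libraries. Phosphoglucose isomerase (PGI1) ranged from 88.7 to 1256 normalised CPM over the 20 libraries, and the phosphofructokinase subunits PFK1 and PFK2 from 37.2 to 119.8 and 52.4 to 265. Triose phosphate isomerase (TPI1) ran from 3751 to 8705, phosphoglycerate kinase (PGK1) from 509 to 5417 and phosphoglycerate mutase (GPM1) from 776 to 2627. None of these 6 was called in any strain. The aldolase gene FBA1 (YKL060C), which splits fructose bisphosphate, was not called among strains (adjusted p = 0.0616) but was lower in D273-10B than in the mean of the others. It stood in BY4741 at 11348, 15369, 9958 and 10079, in CEN.PK2 at 9813, 10113, 15329 and 10455, in D273-10B at 7377, 6677, 4067 and 8032, in RM11-1a at 12142, 11059.6, 12239 and 11183, and in W303 at 8443, 7371, 10129.8 and 10106 normalised CPM. D273-10B replicates 2 and 3 were the lowest of all 20, and its other 2 libraries overlapped W303. The log2 difference was -0.74 (SE 0.21, adjusted p = 0.0208). The call was lost when any 1 of D273-10B replicates 2 and 3 was left out (adjusted p = 0.0767 to 0.111), and under a correction for gene length the difference was -0.50, adjusted p = 0.0939, range over its alternatives 0.000819 to 0.111. Within libraries from 66 it was -0.41, adjusted p = 0.0930, not called.

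Glyceraldehyde-3-phosphate dehydrogenase is encoded by TDH1, TDH2 and TDH3, of which TDH3 was the highest in every library. Shares of the 3 transcripts per kilobase were 74.04% ± 0.406 for TDH3 in BY4741, 71.4% ± 1.89 in CEN.PK2, 71.6% ± 0.876 in W303, 61.0% ± 6.20 in RM11-1a (57.9% ± 1.56 without its replicate 2) and 58.6% ± 3.46 in D273-10B. TDH1 (YJL052W), the isozyme known for its use outside rapid growth, was called among strains (adjusted p = 0.0129). It stood in BY4741 at 1416, 1776, 1720.4 and 1432, in CEN.PK2 at 985, 1707, 2151 and 1739, in D273-10B at 3048, 3586, 2503 and 3971, in RM11-1a at 2579, 2086, 5380.0 and 4229.7, and in W303 at 1353, 878, 1855 and 2337 normalised CPM. RM11-1a replicates 3 and 4 were the highest, and D273-10B lay above all BY4741, CEN.PK2 and W303 libraries. RM11-1a was higher than the mean of the others by 0.89 (SE 0.25, adjusted p = 0.0283). That call was lost when any 1 of RM11-1a replicates 3 and 4 was left out (adjusted p = 0.141 to 0.266), and a correction for gene length gave 0.80, adjusted p = 0.0504, range over its alternatives 0.00689 to 0.266. The difference in D273-10B, 0.74 (SE 0.26, adjusted p = 0.0508), was not called.

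TDH3 itself stood in BY4741 at 15360.4, 21688, 18162 and 15781, in CEN.PK2 at 13445, 18069.5, 25933 and 23331, in D273-10B at 12420.2, 16001, 14222 and 19005, in RM11-1a at 13444, 17421, 22845 and 18829, and in W303 at 13186, 9858, 19575 and 22024 normalised CPM. TDH2 stood in BY4741 at 4139.6, 5789.8, 4559 and 4037, in CEN.PK2 at 4563, 6397, 7771 and 6732, in D273-10B at 7043, 7792, 5723 and 10148, in RM11-1a at 6483, 5361, 11844 and 9954, and in W303 at 4172, 3062, 5532 and 6347 normalised CPM. Neither was called, and strains overlapped for both. The TDH1/TDH3 ratio in D273-10B was 0.245, 0.224, 0.176 and 0.209, against 0.0922, 0.0819, 0.0947 and 0.0907 in BY4741. In RM11-1a it was 0.192, 0.120, 0.236 and 0.225, which overlaps D273-10B. D273-10B was higher than the mean of the other strains by 0.98 (SD within the strain 0.20, adjusted p = 0.0317), in an exact permutation test. TDH2/TDH3 in D273-10B was 0.567, 0.487, 0.402 and 0.534, higher by 0.60 (SD within the strain 0.22, adjusted p = 0.0317) in the same exact permutation test. Both calls were lost without CEN.PK2 replicate 4 or without D273-10B replicate 1, 2 or 4 (adjusted p = 0.0515 to 0.0671). In BY4741 TDH2/TDH3 was 0.270, 0.267, 0.251 and 0.256, below all 16 other libraries, by -0.55 (SD within the strain 0.05, adjusted p = 0.0450) in the exact permutation test. This call was lost when any 1 of BY4741 replicates 1, 2, 3 and 4, CEN.PK2 replicates 1 and 4, D273-10B replicates 1, 2 and 4 and RM11-1a replicates 1, 3 and 4 was left out (adjusted p = 0.0504 to 0.102) and with the library-number group as a block (-0.49, adjusted p = 0.0794, range over its alternatives 0.0392 to 0.402). In RM11-1a the ratio was 0.482, 0.308, 0.518 and 0.529: replicate 2 stands apart from the other 3, with a value inside the range of CEN.PK2 and W303. The coding sequences of TDH2 and TDH3 are 95.8% identical in the S288C reference, and 9.84% to 18.9% of the 75-base windows of the 3 genes occur elsewhere in the genome, so reads may be divided between them by the authors' counting.

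Enolase is made from ENO2, the glucose-induced gene, and ENO1. ENO1 stood in BY4741 at 4364, 5021, 5757 and 5429.7, in CEN.PK2 at 5946, 3145, 6525 and 1658, in D273-10B at 6383, 5494, 1124 and 2606, in RM11-1a at 7559, 6387, 7435 and 6171, and in W303 at 7956, 4871, 5103 and 5399 normalised CPM. ENO2 stood in BY4741 at 19889, 20898, 22229 and 21718, in CEN.PK2 at 31812, 13541, 33836 and 10071, in D273-10B at 23172, 20155, 5146 and 13467, in RM11-1a at 21555, 21486, 14953 and 15622, and in W303 at 23873, 19936, 15223 and 15402 normalised CPM. ENO2 was above ENO1 in every library, and neither gene was called in a strain. Their ratio was called in RM11-1a and CEN.PK2: ENO1/ENO2 was 0.351, 0.297, 0.497 and 0.395 in RM11-1a, above the mean of the others by 0.64 (SD within the strain 0.31, adjusted p = 0.0196) by exact permutation, although W303 replicates overlapped it. It was 0.187, 0.232, 0.193 and 0.165 in CEN.PK2, below by -0.58 (SD within the strain 0.21, adjusted p = 0.0431) by exact permutation. The RM11-1a call was lost when any 1 of RM11-1a replicates 3 and 4 was left out (adjusted p = 0.0528 to 0.0764) and with the library-number group as a block (0.46, adjusted p = 0.118, range over its alternatives 0.0109 to 0.118), and the CEN.PK2 call was lost when any 1 of CEN.PK2 replicates 1, 3 and 4, D273-10B replicate 2, RM11-1a replicates 1 and 4 and W303 replicates 1, 3 and 4 was left out (adjusted p = 0.0529 to 0.110). Of the windows of ENO1 and ENO2, 10.7% are shared.

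Pyruvate kinase came almost wholly from CDC19, at 219 to 5075 normalised CPM, with PYK2, the glucose-repressed copy, at 3.12 to 33.2. PYK2 (YOR347C) was called among strains (adjusted p = 0.0332) but in no contrast of a strain with the mean of the rest. It stood in BY4741 at 33.2, 16.4, 26.9 and 23.4, in CEN.PK2 at 9.69, 15.3, 9.503 and 3.12, in D273-10B at 20.6, 10.5, 6.42 and 8.97, in RM11-1a at 14.3, 23.3, 20.0 and 28.0, and in W303 at 15.8, 16.8, 16.7 and 14.7 normalised CPM. BY4741 and CEN.PK2 did not overlap, and CEN.PK2 was lower than BY4741 by -1.47 (SE 0.40, adjusted p = 0.0321). The call among strains was lost without BY4741 replicates 1, 3 or 4, CEN.PK2 replicates 1 or 3, D273-10B replicate 2 or RM11-1a replicate 4, with adjusted p values up to 0.119 over all alternatives. Pyruvate decarboxylase came from PDC1, at 2007 to 22894. PDC5, usually held down while PDC1 is active, ran from 2.78 to 41.2, and PDC6 from 6.75 to 752. In D273-10B PDC6 stood at 11.5, 445, 752 and 21.2, so that replicates 2 and 3 exceeded every other library while replicates 1 and 4 were among the lowest. Its log2 difference of 1.90 (SE 0.74, adjusted p = 0.0809) was not called. None of the 3 was called among strains or against the mean of the rest, and in pairs PDC5 was higher in CEN.PK2 than in BY4741 by 1.99 (SE 0.60, adjusted p = 0.0495).

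The alcohol dehydrogenase family differed in make-up between strains. ADH1 encodes the cytosolic enzyme that makes ethanol, ADH2 the glucose-repressed enzyme that takes ethanol back up, and ADH3 a mitochondrial enzyme. ADH4 encodes an enzyme of another protein family, known to be induced by zinc shortage, and ADH5 a minor enzyme. ADH1 and ADH2 are 88.8% identical over 1047 coding bases in the S288C reference, and 11.8% of their 75-base windows are shared. The beginnings of their coding sequences are shown because they let reads of these genes be told apart at 11 of 90 bases. They come from the RefSeq R64 genome, 5′ to 3′ on the coding strand, with the differing bases in capitals, ADH1 from chrXV:160505-160594 (minus strand) and ADH2 from chrXIII:874248-874337 (minus strand).
ADH1: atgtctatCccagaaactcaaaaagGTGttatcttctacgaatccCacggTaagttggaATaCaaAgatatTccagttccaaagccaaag
ADH2: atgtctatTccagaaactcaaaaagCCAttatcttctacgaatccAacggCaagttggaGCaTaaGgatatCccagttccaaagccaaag

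ADH1 (YOL086C) stood in BY4741 at 4137, 6459.7, 3018 and 3436, in CEN.PK2 at 10450.3, 8459, 7600.2 and 11551, in D273-10B at 1809, 905, 287 and 753, in RM11-1a at 3654, 3132, 4470.2 and 4345, and in W303 at 5915, 4292, 9716 and 8580.5 normalised CPM. All 4 D273-10B libraries lay below the other 16, and CEN.PK2 and W303 held the 6 highest values. D273-10B averaged 938 ± 637 normalised CPM and CEN.PK2 9515 ± 1808 (mean ± SD, n = 4). D273-10B was lower than the mean of the others by -2.63 (SE 0.39, adjusted p = 9.49e-05). CEN.PK2 was higher by 1.55 (SE 0.29, adjusted p = 0.00301), which did not pass within libraries from 69 (1.34, adjusted p = 0.203, range over its alternatives 6.58e-05 to 0.203). In pairs, D273-10B was called below each of the other 4 strains, with log2 differences of -3.34 from CEN.PK2 and -2.18 from BY4741. RM11-1a exceeded it by 2.06 (2.15 with adjusted p = 0.00257 without its replicate 2) and W303 by 2.92. No pair of CEN.PK2 with W303, BY4741 or RM11-1a passed the threshold, and the lowest adjusted p was 0.0638, against RM11-1a (0.133 without RM11-1a replicate 2).

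ADH2 (YMR303C) stood in BY4741 at 568, 838, 403 and 435, in CEN.PK2 at 1253, 1042, 977 and 1399, in D273-10B at 241, 126, 28.2 and 101.5, in RM11-1a at 1121, 575, 1447 and 1420.2, and in W303 at 724, 521, 1262 and 1196 normalised CPM. Again the D273-10B libraries were below the other 16. The log2 difference in D273-10B was -2.87 (SE 0.45, adjusted p = 0.000184), and that in RM11-1a was 1.12 (SE 0.34, adjusted p = 0.0386). The RM11-1a call was lost when any 1 of BY4741 replicates 1, 3 and 4, CEN.PK2 replicate 3, RM11-1a replicates 1, 3 and 4 and W303 replicates 1 and 2 was left out (adjusted p = 0.0502 to 0.189). The ADH2/ADH1 ratio was steadier than either gene. It lay between 0.0984 and 0.139 in the 16 libraries of the other strains, over which ADH1 ranged from 287 to 11551. In RM11-1a it was 0.307, 0.183, 0.324 and 0.327, above all 16, with replicate 2 nearest to them. The difference of 1.13 (SD within the strain 0.40, adjusted p = 0.00327) was called by exact permutation, and with the library-number group as a block it was 0.72, adjusted p = 0.00654. In D273-10B the ratio was 0.134, 0.139, 0.0984 and 0.135, and it was not called. Its log2 difference there was -0.31 (SD within the strain 0.23, adjusted p = 0.473, exact permutation). ADH2 was thus not shown to be low in D273-10B apart from ADH1. How far shared windows bring ADH1 reads into the ADH2 count was not tested.

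ADH3 (YMR083W) stood in BY4741 at 311, 371, 304 and 282, in CEN.PK2 at 305, 244, 289 and 83.2, in D273-10B at 109.2, 90.9, 45.3 and 90.4, in RM11-1a at 181, 296, 215 and 225, and in W303 at 252, 256, 276 and 236 normalised CPM. D273-10B was lower, with a log2 difference of -1.61 (SE 0.30, adjusted p = 0.000842), although CEN.PK2 replicate 4 fell inside its range. It was lower than each of the other 4 strains in pairs, by -1.92 against BY4741 on the log2 scale. ADH4 (YGL256W) went the other way and stood in BY4741 at 400.1, 416, 1312 and 919, in CEN.PK2 at 543, 785, 1519 and 15.97, in D273-10B at 6218, 5857, 3810.3 and 6145, in RM11-1a at 2909, 1955, 2090.5 and 1829.7, and in W303 at 1887, 1822, 1182 and 1076 normalised CPM. All D273-10B libraries were above the other 16, whose highest value was 2909. D273-10B was higher by 2.25 (SE 0.47, adjusted p = 0.00202). It was above BY4741 by 2.85 (SE 0.72, adjusted p = 0.0120) and above CEN.PK2 by 2.94 (SE 0.72, adjusted p = 0.0188). RM11-1a and W303, next in order, were lower than D273-10B by values that did not pass (-1.33 with adjusted p = 0.181, and -1.88 with adjusted p = 0.0828). Without RM11-1a replicate 2 the first of these was -1.27 with adjusted p = 0.263. The 4 D273-10B calls for ADH1, ADH2, ADH3 and ADH4 were kept under all 30 alternatives run. The ADH2/ADH1 ratio was not called in D273-10B.

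**Figure D4:**
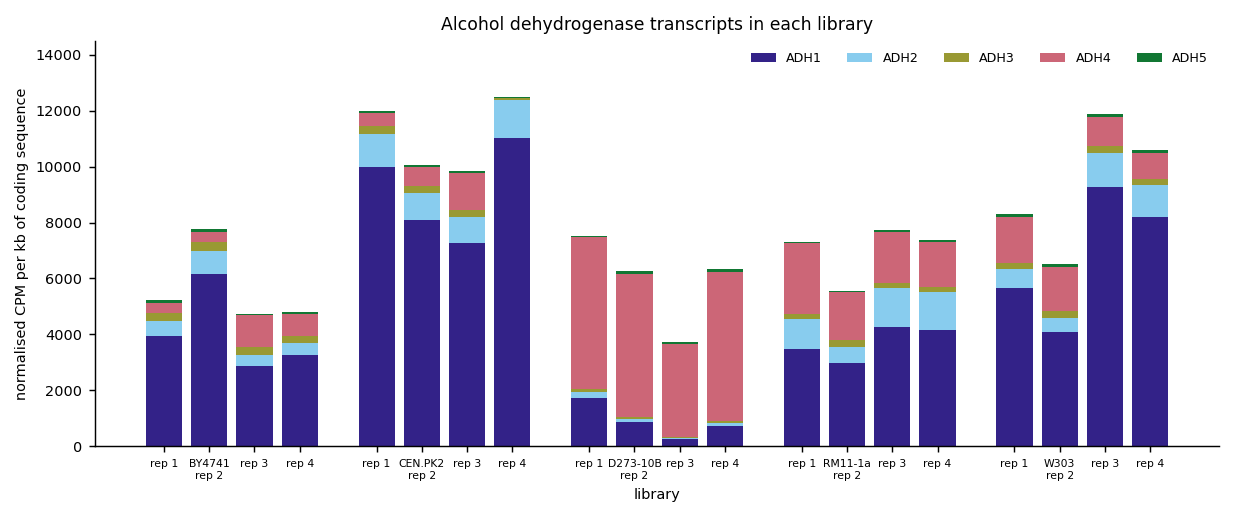
Summed level of the 5 alcohol dehydrogenase transcripts in each library, as normalised CPM per kilobase of coding sequence, stacked by gene. ADH4 forms most of each D273-10B bar and ADH1 most of the bars of BY4741, CEN.PK2 and W303, while the total in D273-10B, 3718 to 7524, overlaps those of BY4741, RM11-1a and W303.

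Per kilobase, ADH4 made up 81.6% ± 7.26 of the 5 ADH transcripts in D273-10B and ADH1 13.9% ± 6.61 (mean ± SD, n = 4). ADH1 made up 81.4% ± 6.16 in CEN.PK2, 71.6% ± 7.42 in W303, 71.2% ± 8.16 in BY4741 and 53.2% ± 3.83 in RM11-1a, where ADH4 held 27.6% ± 6.07. Leaving out RM11-1a replicate 2, these last shares were 53.0% ± 4.665 and 26.6% ± 7.02 (n = 3). The sum of the family was 5968 ± 1605 normalised CPM per kilobase in D273-10B, 5619 ± 1442 in BY4741, 7001 ± 974 in RM11-1a (7480.0 ± 224 without its replicate 2), 9330 ± 2383 in W303 and 11095 ± 1332 in CEN.PK2. The D273-10B libraries overlapped those of every strain but CEN.PK2. ADH4/ADH1 was 3.13, 5.90, 12.1 and 7.43 in D273-10B and below 1 in the other 16 libraries, a log2 difference of 5.45 (SD within the strain 0.81, adjusted p = 0.00327) by exact permutation. ADH5 stood in BY4741 at 101.04, 101.2, 43.5 and 39.4, in CEN.PK2 at 77.4, 90.7, 86.6 and 18.1, in D273-10B at 60.2, 125, 63.9 and 108.98, in RM11-1a at 71.1, 66.5, 79.0 and 88.9, and in W303 at 116, 118, 134 and 118 normalised CPM, with no strain called. ADH5/ADH1 was 0.0330, 0.137, 0.221 and 0.144 in D273-10B, higher by 3.02 (SD within the strain 1.19, adjusted p = 0.00327) by exact permutation. In CEN.PK2 3 ratios were low by exact permutation: ADH3/ADH1 by -1.56 (SD within the strain 1.09, adjusted p = 0.0196), ADH4/ADH1 by -4.16 (SD within the strain 3.18, adjusted p = 0.0450) and ADH5/ADH1 by -2.19 (SD within the strain 1.34, adjusted p = 0.0317). All 3 of these were lost without CEN.PK2 replicate 4, in which ADH4 was the lowest of all 20 (log2 differences of -1.03, -2.62 and -1.53). In all, the ADH4/ADH1 call was lost when any 1 of BY4741 replicate 3, CEN.PK2 replicates 1, 2 and 4, D273-10B replicates 2 and 4, RM11-1a replicates 1, 2, 3 and 4 and W303 replicate 2 was left out (adjusted p = 0.0504 to 0.219), and ADH5/ADH1 without CEN.PK2 replicate 1 or D273-10B replicate 2 or 4. With the library-number group as a block ADH4/ADH1 in CEN.PK2 was -3.82, adjusted p = 0.0576, not called.

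Within library-number groups the ADH1, ADH2 and ADH4 differences of D273-10B kept their direction and passed. Among libraries with numbers from 69, which include 3 of D273-10B, the log2 differences were -3.49, adjusted p = 0.000568 for ADH1 and 2.72, adjusted p = 0.000197 for ADH4 (edgeR). Among those from 66, with 1 of D273-10B, they were -1.45, adjusted p = 0.0189 for ADH1 and 2.26, adjusted p = 0.00452 for ADH4, the lone library being assumed to vary like the other strains. ADH2 was -1.60, adjusted p = 0.0407 there. Of 14 zinc-responsive genes, a list added after these values were seen, 1 was higher in D273-10B (VEL1) and 3 were lower (ZRT2, ZPS1 and DPP1), while 5 were higher and 1 lower in RM11-1a (5 and 2 without its replicate 2, ZPS1 being the one added, at -3.22 with adjusted p = 0.000217), 0 higher and 3 lower in CEN.PK2, 1 higher and 1 lower in BY4741, and 2 higher and 0 lower in W303. Over all genes, 13.5% were called higher and 4.66% lower in D273-10B, and 6.39% and 4.51% in RM11-1a (7.23% and 5.4% without its replicate 2). The shares were 3.5% and 1.37% in CEN.PK2, 2.26% and 2.58% in BY4741, and 2.66% and 1.45% in W303. The zinc list's median log2 difference in D273-10B was -0.06, against 0.11 over all genes. The high-affinity zinc transporter gene ZRT1 stood at 3909.6 ± 1347 normalised CPM in D273-10B, 5889.7 ± 1028 in BY4741, 3928 ± 1549.5 in RM11-1a (3334 ± 1217 without its replicate 2), 3263 ± 498 in W303 and 1457 ± 937 in CEN.PK2.

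Aldehyde dehydrogenases oxidise acetaldehyde to acetate. ALD6 encodes the main cytosolic enzyme on glucose, ALD4 the main mitochondrial one, ALD5 a minor mitochondrial one, and ALD2 and ALD3 a stress-induced tandem pair of cytosolic enzymes. ALD2 and ALD3 lie next to each other on chromosome XIII and are 91.8% identical, with 29.9% of their windows shared. The opening stretch is shown for both because its 90 bases are the same in the S288C reference, so that a read from it cannot be assigned to either gene. Both are from the RefSeq R64 genome on the minus strand, ALD2 at chrXIII:602993-603082 and ALD3 at chrXIII:600783-600872, with no capitals since no base differs.
ALD2: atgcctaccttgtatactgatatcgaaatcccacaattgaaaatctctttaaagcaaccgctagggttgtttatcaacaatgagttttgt
ALD3: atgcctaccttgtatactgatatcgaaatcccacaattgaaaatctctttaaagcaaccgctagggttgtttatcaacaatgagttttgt

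ALD3 (YMR169C) gave the lowest adjusted p of all members among strains, 4.54e-06. It stood in BY4741 at 20.8, 22.5, 34.8 and 31.5, in CEN.PK2 at 11.8, 19.2, 13.0 and 10.8, in D273-10B at 18.9, 12.3, 14.8 and 13.7, in RM11-1a at 59.1, 45.8, 203 and 145, and in W303 at 18.1, 18.9, 13.5 and 19.2 normalised CPM. All 4 RM11-1a libraries were above the other 16, whose highest was 34.8, and replicates 3 and 4 stood well above replicates 1 and 2. RM11-1a was higher by 2.68 (SE 0.25, adjusted p = 6.03e-07). CEN.PK2 and D273-10B were lower, with log2 differences of -1.16 (SE 0.32, adjusted p = 0.0409) and -0.97 (SE 0.31, adjusted p = 0.0359). The mean for each includes RM11-1a, and libraries of both overlapped those of W303. The CEN.PK2 call was lost when any 1 of BY4741 replicates 3 and 4, CEN.PK2 replicates 1, 3 and 4, RM11-1a replicate 4 and W303 replicates 1, 2 and 4 was left out (adjusted p = 0.0515 to 0.196). The D273-10B call was lost when any 1 of D273-10B replicates 2, 3 and 4 was left out (adjusted p = 0.0866 to 0.134). A correction for gene length also ended both (-0.93, adjusted p = 0.108, range over its alternatives 0.00721 to 0.980 in CEN.PK2, and -0.81, adjusted p = 0.109, range over its alternatives 0.0117 to 0.302 in D273-10B). Both were also lost with a block by replicate number and with counts thinned to the smallest library. That in CEN.PK2 was lost with a filter at a mean of 10 CPM too. Neither passed within a library-number group. In CEN.PK2 the values were -0.12, adjusted p = 0.980 from 69 and -1.24, adjusted p = 0.0540 from 66, and in D273-10B -0.36, adjusted p = 0.302 and -0.40, adjusted p = 0.246. With the group as a block the D273-10B call did not pass either (-0.73, adjusted p = 0.0934).

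ALD2 (YMR170C) stood in BY4741 at 35.6, 37.0, 41.0 and 42.2, in CEN.PK2 at 20.3, 24.9, 18.8 and 11.2, in D273-10B at 38.2, 18.95, 13.1 and 20.7, in RM11-1a at 42.8, 37.3, 100.8 and 79.1, and in W303 at 26.2, 26.4, 27.0 and 30.6 normalised CPM. RM11-1a was the highest strain, by 1.33 (SE 0.25, adjusted p = 0.00134), with replicates 1 and 2 at the level of BY4741. The call among strains had an adjusted p of 0.00297. ALD2/ALD3 was 0.725, 0.815, 0.496 and 0.548 in RM11-1a, below the 16 other libraries, which ran from 0.881 to 2.02. The log2 difference was -1.20 (SD within the strain 0.34, adjusted p = 0.00327), called by exact permutation, so that ALD3 exceeded the other strains by more than ALD2 did. With the library-number group as a block it was -0.66, adjusted p = 0.0216.

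ALD4 (YOR374W) stood in BY4741 at 578, 408, 278 and 279.6, in CEN.PK2 at 86.3, 129, 62.0 and 21.4, in D273-10B at 97.8, 78.8, 34.3 and 62.4, in RM11-1a at 134, 268, 246 and 254, and in W303 at 56.3, 68.5, 63.5 and 70.5 normalised CPM. BY4741 lay above all 16 other libraries, and RM11-1a replicates 2 to 4 came next. The call among strains had an adjusted p of 0.000147. BY4741 was higher by 2.06 (SE 0.29, adjusted p = 0.000458) and RM11-1a by 1.09 (SE 0.31, adjusted p = 0.0274). D273-10B was lower, with a log2 difference of -1.06 (SE 0.36, adjusted p = 0.0434). The mean for D273-10B includes BY4741 and RM11-1a, and its libraries overlapped those of CEN.PK2 and W303. BY4741 exceeded CEN.PK2, D273-10B and W303 in pairs, with W303 lower by -2.58 on the log2 scale. The BY4741 call did not pass within libraries from 66 (1.48, adjusted p = 0.0803, range over its alternatives 8.3e-08 to 0.0803). The RM11-1a call was lost when any 1 of RM11-1a replicates 2, 3 and 4 was left out (adjusted p = 0.0696 to 0.112). Thinning counts to the smallest library ended the D273-10B call, as did a filter at a mean of 10 CPM. The D273-10B call was lost when any 1 of BY4741 replicates 1 and 2, CEN.PK2 replicate 1, D273-10B replicates 2, 3 and 4, RM11-1a replicates 2, 3 and 4 and W303 replicates 1, 2 and 4 was left out (adjusted p = 0.0504 to 0.194), and within libraries from 66 (-0.44, adjusted p = 0.398, range over its alternatives 0.00820 to 0.398). ALD4/ALD6 was 0.937, 0.837, 0.602 and 0.403 in BY4741, against 0.220, 0.617, 0.505 and 0.365 in RM11-1a and 0.194, 0.346, 0.422 and 0.441 in D273-10B, so that libraries of both overlapped BY4741 replicate 4. BY4741 was higher than the mean of the others by 1.43 (SD within the strain 0.55, adjusted p = 0.0196) by exact permutation, a call that was lost without BY4741 replicate 2 (adjusted p = 0.0519). ALD6 stood in BY4741 at 595, 469.8, 446 and 669, in CEN.PK2 at 402, 810.4, 409 and 137, in D273-10B at 487, 219, 78.5 and 136, in RM11-1a at 588, 418, 468 and 671, and in W303 at 450.4, 349, 355 and 338 normalised CPM, with no strain called.

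ALD5 (YER073W) stood in BY4741 at 132, 127, 77.2 and 93.6, in CEN.PK2 at 131, 143, 77.0 and 29.4, in D273-10B at 71.3, 36.3, 21.5 and 34.8, in RM11-1a at 62.2, 68.6, 28.8 and 49.8, and in W303 at 193, 193, 258 and 199.5 normalised CPM. W303 was above all other libraries, by 1.62 (SE 0.30, adjusted p = 0.00248), and this call was kept under all 30 alternatives. D273-10B was lower than the mean of the others, which includes W303, and its libraries overlapped those of RM11-1a. Its log2 difference was -1.33 (SE 0.36, adjusted p = 0.0135), a call that was lost when any 1 of D273-10B replicates 2 and 3 was left out (adjusted p = 0.0672 to 0.0731). It was -2.25, adjusted p = 0.00102 within libraries from 69, and did not pass within those from 66 (-0.63, adjusted p = 0.0793, range over its alternatives 0.000486 to 0.0793). ALD5/ALD4 made the contrast between the mitochondrial pair plain: it was 3.42, 2.81, 4.05 and 2.82 in W303, 1.52, 1.11, 1.24 and 1.37 in the CEN.PK2 libraries, 0.728, 0.460, 0.625 and 0.558 in those of D273-10B, 0.228, 0.312, 0.277 and 0.334 in BY4741 and 0.464, 0.256, 0.117 and 0.196 in RM11-1a. W303 and CEN.PK2 held every value above 1, and W303 exceeded the rest by 2.78 (SD within the strain 0.25, adjusted p = 0.00327) by exact permutation. ALD5 thus made up 29.7% ± 4.12 of the 5 ALD transcripts per kilobase in W303 and 9.502% ± 1.58 in BY4741, and ALD4 9.199% ± 1.45 and 33.7% ± 7.58. Acetyl-CoA synthetase genes were not called: ACS1, the glucose-repressed one, ran from 11.7 to 33.6 normalised CPM, and ACS2 from 54.3 to 369.

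Glycerol is made from dihydroxyacetone phosphate by glycerol-3-phosphate dehydrogenase (GPD1, induced by osmotic stress, and GPD2, induced without oxygen) and glycerol-3-phosphatase (GPP1 and the stress-induced GPP2). GPD1 (YDL022W) stood in BY4741 at 141, 105, 51.3 and 96.7, in CEN.PK2 at 81.6, 134, 103 and 22.0, in D273-10B at 112, 106, 32.7 and 80.3, in RM11-1a at 202, 92.5, 271 and 351, and in W303 at 64.7, 71.4, 78.8 and 70.2 normalised CPM. RM11-1a replicates 1, 3 and 4 were above all libraries of the other strains, and replicate 2 lay within their range. RM11-1a was higher by 1.45 (SE 0.34, adjusted p = 0.00797), and the gene was called among strains (adjusted p = 0.0331). The contrast call was lost without RM11-1a replicate 4 (adjusted p = 0.0888). The call among strains was lost without RM11-1a replicate 3 or 4 or W303 replicate 1, 2 or 4, with adjusted p up to 0.343 over all alternatives. GPD2 ranged from 5.98 to 122 normalised CPM with no strain called.

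GPP2 (YER062C) stood in BY4741 at 166, 204, 329 and 289, in CEN.PK2 at 161, 100.9, 146 and 203, in D273-10B at 123, 138, 111 and 131, in RM11-1a at 423, 405, 1173 and 785, and in W303 at 136, 88.2, 108.5 and 102 normalised CPM. RM11-1a was above all 16 other libraries, whose highest was 329. It was higher by 2.21 (SE 0.23, adjusted p = 2.26e-06), with an adjusted p among strains of 1.54e-05. D273-10B was lower, with a log2 difference of -0.88 (SE 0.28, adjusted p = 0.0352) and W303 by -1.14 (SE 0.29, adjusted p = 0.0293). The mean for each includes RM11-1a, and libraries of D273-10B, W303 and CEN.PK2 overlapped. The D273-10B call was lost when any 1 of BY4741 replicate 4, D273-10B replicates 2, 3 and 4 and W303 replicate 1 was left out (adjusted p = 0.0502 to 0.122). The W303 call was lost when any 1 of W303 replicates 1, 2, 3 and 4 was left out (adjusted p = 0.0510 to 0.116). Within libraries from 69 and from 66 neither passed: D273-10B was at -0.06, adjusted p = 0.853 and -0.85, adjusted p = 0.0864, and W303 at -0.41, adjusted p = 0.401 and -1.01, adjusted p = 0.113. With the group as a block D273-10B was at -0.57, adjusted p = 0.0929, not called. GPP1 stood in BY4741 at 1367, 1843, 1248 and 1476, in CEN.PK2 at 1648, 927, 1798 and 2127, in D273-10B at 936, 1229, 1337 and 1442, in RM11-1a at 1590.0, 1285, 1559 and 1346, and in W303 at 1731, 1655, 1324 and 1622 normalised CPM, with no strain called. Its highest value was 2.29 times its lowest, the smallest such ratio among the 36 members. GPP2/GPP1 was 0.266, 0.315, 0.753 and 0.583 in RM11-1a and 0.0533 to 0.264 in the other 16 libraries, a log2 difference of 2.10 (SD within the strain 0.71, adjusted p = 0.00327) by exact permutation. With the library-number group as a block it was 1.19, adjusted p = 0.0392. GPP2 made up 31.2% ± 10.4 of the pair per kilobase in RM11-1a (33.6% ± 11.3 without its replicate 2) and 6.45% ± 1.18 in W303.

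When the library labelled RM11-1a replicate 2 was left out, the count of members higher in RM11-1a was 7, with 7.23% of all genes called higher, and 0 were lower, with 5.4% called lower. The median over members was then 0.24, and over all genes -0.13. ALD4 was the member lost, at 0.99 (adjusted p = 0.0696). The others were HXK1 at 1.60 (adjusted p = 0.0196), TDH1 at 1.08 (adjusted p = 0.00950), ADH2 at 1.34 (adjusted p = 0.0150), ALD2 at 1.52 (adjusted p = 0.000273), ALD3 at 2.94 (adjusted p = 1.47e-08), GPD1 at 1.71 (adjusted p = 0.00159) and GPP2 at 2.40 (adjusted p = 2.94e-07). The 5 RM11-1a ratio calls were kept without it, with log2 differences of 2.85 for HXK1/HXK2, 0.76 for ENO1/ENO2, 1.33 for ADH2/ADH1, -1.32 for ALD2/ALD3 and 2.26 for GPP2/GPP1. RM11-1a replicates 1 and 2 have library numbers from 66 and replicates 3 and 4 from 74, a group that otherwise holds CEN.PK2 replicate 4. With the library-number group as a block, where 4.51% of all genes were called, 3 members stayed called: HXK1 (2.25, adjusted p = 0.0494), ALD3 (2.02, adjusted p = 0.00238) and GPP2 (1.56, adjusted p = 0.00170). Within libraries from 66 alone, where 2.22% of all genes were called, 3 were called, HXK1 (1.29, adjusted p = 0.0298), ALD3 (1.44, adjusted p = 0.0112) and GPP2 (1.35, adjusted p = 0.0274). The other 5 kept their direction but did not pass, with ALD2 at 0.40, adjusted p = 0.181, range over its alternatives 1.38e-05 to 0.181, and the group from 74, of 2 RM11-1a libraries and 1 of CEN.PK2, was not tested alone.

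Several of the members raised in RM11-1a are known targets of the stress regulators Msn2 and Msn4, which bind the stress response element (STRE, AGGGG or CCCCT on the strand shown). The upstream stretches of 4 of the 8 are printed to show these letters where they occur, from 400 to 101 bases before the start codon, 5′ to 3′ on the gene's strand, with each STRE in capitals. They are from the RefSeq R64 genome of S288C, not from RM11-1a: GPD1 at chrIV:411425-411724 (plus), ALD3 at chrXIII:600973-601272 (minus), GPP2 at chrV:280783-281082 (minus) and HXK1 at chrVI:255150-255449 (minus).
GPD1: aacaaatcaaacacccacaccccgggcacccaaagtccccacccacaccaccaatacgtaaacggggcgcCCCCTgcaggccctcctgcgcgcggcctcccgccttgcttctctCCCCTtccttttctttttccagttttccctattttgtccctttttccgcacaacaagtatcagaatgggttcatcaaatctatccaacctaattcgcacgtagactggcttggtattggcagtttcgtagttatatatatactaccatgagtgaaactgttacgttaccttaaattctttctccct
ALD3: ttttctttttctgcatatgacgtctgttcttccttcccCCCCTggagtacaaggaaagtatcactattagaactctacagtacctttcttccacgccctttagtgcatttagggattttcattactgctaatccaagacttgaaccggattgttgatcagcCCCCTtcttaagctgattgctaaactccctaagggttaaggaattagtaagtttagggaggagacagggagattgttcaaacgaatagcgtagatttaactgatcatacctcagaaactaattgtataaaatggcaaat
GPP2: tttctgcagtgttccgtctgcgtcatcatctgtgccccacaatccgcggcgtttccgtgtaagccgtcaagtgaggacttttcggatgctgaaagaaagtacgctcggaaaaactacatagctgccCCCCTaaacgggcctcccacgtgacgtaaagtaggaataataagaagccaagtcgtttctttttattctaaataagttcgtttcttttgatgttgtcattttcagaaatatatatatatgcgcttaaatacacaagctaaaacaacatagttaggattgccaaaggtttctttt
HXK1: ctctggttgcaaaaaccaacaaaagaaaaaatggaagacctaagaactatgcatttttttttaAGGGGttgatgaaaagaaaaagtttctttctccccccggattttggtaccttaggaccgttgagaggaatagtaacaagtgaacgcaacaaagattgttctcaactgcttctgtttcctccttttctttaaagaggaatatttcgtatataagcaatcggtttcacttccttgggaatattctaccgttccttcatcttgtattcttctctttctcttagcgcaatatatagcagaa

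In this window, on either strand, 23.5% of 6001 genes hold a STRE, and so do 20 of the 36 members (55.6%). Of the 8 members higher in RM11-1a 6 hold one, and ADH2 and ALD2 do not. ALD4, lost without RM11-1a replicate 2, is among the 6. The core letters of the glycolytic activator Gcr1 (CTTCC or GGAAG) were found in 19 of 36 members, against 47.0% of the 6001 genes. A match is a description of these letters and not a site. Whether Msn2 or Msn4 acts on these genes in RM11-1a was not tested. The MSN2 and MSN4 transcripts were not called there, with or without RM11-1a replicate 2. With it, their log2 differences were -0.14 (adjusted p = 0.819, edgeR) and -0.37 (adjusted p = 0.597, edgeR). Of 10 genes induced by stress, 6 were higher in RM11-1a and 1 lower, where 6.39% and 4.51% of all genes were. Their median log2 difference was 1.85, against -0.09 over all genes. This list was added after the members' values were seen, so its counts describe these libraries and cannot test the rise of the members. The counts were again 6 and 1 without RM11-1a replicate 2, with 7.23% and 5.4% of all genes, and the median was 2.04. The same list had 2 higher and 3 lower in D273-10B (13.5% and 4.66% of all genes) and 0 higher and 3 lower in CEN.PK2 (3.5% and 1.37%). It had 2 higher and 0 lower in BY4741 (2.26% and 2.58%), and 0 called in W303 (2.66% and 1.45%). Of 8 genes released from glucose repression, also added afterwards, 0 were called in RM11-1a, and in D273-10B 2 were higher and 2 lower, beside the same shares of all genes. Without RM11-1a replicate 2 the first count became 3, with 12.6% of all genes called: SFC1 was higher (1.11 with adjusted p = 0.0237), and PCK1 (-1.36 with adjusted p = 0.000948) and ICL1 (-1.07 with adjusted p = 0.0493) were lower. In the stress list TFS1 was the gene lower in RM11-1a (-1.40, edgeR adjusted p = 0.0384). HSP26 (0.90), SSA4 (0.67) and HSP104 (-0.68) were not called there. The largest difference of the list was that of HSP12 (6.22). HSP12, a membrane-bound heat shock protein gene, stood at 794, 569, 6609.7 and 2543 normalised CPM in RM11-1a and at 136, 219, 296 and 287 in BY4741. Its RM11-1a libraries were all above those of BY4741, with replicates 3 and 4 the highest, as for ALD3 and GPP2.

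Genes that surround the pathway were read from 2 lists. Of 18 regulators, 6 differed among strains, where 28.4% of all genes did. Without RM11-1a replicate 2 there were 4, with SNF1 (adjusted p = 0.0696) and ZNF1 (0.0532) lost. ADR1, the activator of ADH2 and other genes of growth without glucose, was higher in D273-10B by 2.82 (SE 0.71, adjusted p = 0.00844), although its 4 values there, 5.17, 329, 139.9 and 2.78 normalised CPM, ran from below to above those of BY4741, CEN.PK2 and RM11-1a. ZNF1, a regulator of respiratory growth, was higher in D273-10B by 1.80 (SE 0.45, adjusted p = 0.00806) and the kinase gene SNF1 by 0.94 (SE 0.29, adjusted p = 0.0307). MIG2, a glucose repressor, was higher in BY4741 by 1.60 (SE 0.34, adjusted p = 0.00931). TYE7, an activator of glycolytic genes, was higher in RM11-1a by 0.74 (SE 0.23, adjusted p = 0.0415), with adjusted p = 0.0193 among strains (0.88 with adjusted p = 0.0210 in RM11-1a without its replicate 2). Without that library MIG2 was lower in RM11-1a, at -1.28 with adjusted p = 0.00254, where it stood at 39.4, 216, 32.1 and 37.5 normalised CPM. SIP4 was called among strains (adjusted p = 0.0361) and in no single strain. In all, 4 of the 18 were higher in D273-10B, where 13.5% of all genes were, 1 each in BY4741, CEN.PK2 and RM11-1a, 0 in W303, and in the fit of all 20 libraries 0 were lower in any strain. Their median log2 difference was 0.36 in D273-10B, against 0.11 over all genes, and -0.19 in RM11-1a, against -0.09.

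Of 26 neighbouring enzymes and transporters, 16 differed among strains, where 28.4% of all genes did (15 without RM11-1a replicate 2, with ADH6 lost at adjusted p = 0.0534). In RM11-1a 8 were higher and 0 lower, where 6.39% and 4.51% of all genes were, with a median log2 difference of 0.21 against -0.09 over all genes. The 8 included the butanediol dehydrogenase genes BDH1 (2.03) and BDH2 (1.48), the alcohol dehydrogenase genes SFA1 (1.66) and ADH7 (3.03) and the glycerol dehydrogenase gene GCY1 (2.97). The other 3 were GPM2 (2.47), the external NADH dehydrogenase gene NDE2 (1.36) and PGM2, phosphoglucomutase (1.32), all as log2 differences with edgeR adjusted p under 0.05. The same 8 were higher without RM11-1a replicate 2, with a median over the list of 0.31. In D273-10B 4 of the 26 were higher and 5 lower, where 13.5% and 4.66% of all genes were, among them ADH6 at -1.19 (SE 0.33, adjusted p = 0.0142), STL1, a glycerol importer, at 1.85 (SE 0.34, adjusted p = 0.000729), and PFK26, which makes the phosphofructokinase activator, at 1.40 (SE 0.31, adjusted p = 0.00317). In CEN.PK2 ADH7 was called lower (adjusted p = 1.84e-07), at 0 to 0.189 normalised CPM against 4.34 to 32.2 in the other strains, and the enolase-related genes ERR1, ERR2 and ERR3 were higher, ERR3 by 2.71 (SE 0.36, adjusted p = 0.000101). ERR1 to ERR3 are near-copies of each other, so their reads may be divided between them. Whether CEN.PK2 reads can be assigned to ADH7 was not tested. EMI2, a paralogue of GLK1, was higher in BY4741 by 1.21 (SE 0.28, adjusted p = 0.0157), as HXK1 was, and lower in CEN.PK2 by -1.16 (SE 0.33, adjusted p = 0.0460), as HXK1 was. NDE1 was higher in W303 by 1.43 (SE 0.35, adjusted p = 0.0270).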

How the data were processed

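RNA-seq libraries (Smart-seq2, 75-base single-end reads) of 20 yeast samples, 4 for each of 5 strains, were compared. The authors deposited raw counts of reads per gene, with no normalization, per the file header. The submitters' processing notes name STAR and Salmon. Their role, the genome build and any use of strand are not given in the sources used here. All 7127 genes and 20 columns were read, with 0 columns unused. Libraries were grouped by strain as the sample labels give it.

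The test was that of edgeR (4.0.16, under R 4.3.3). filterByExpr kept 6119 genes, TMM scaled the libraries, and 1 quasi-likelihood model with strain as its only term (15 residual degrees of freedom) was fitted to all 20. It was tested among strains, between pairs, and as 1 strain minus the mean of the rest, with Benjamini-Hochberg adjustment over all genes and a threshold of 0.05. SE is the log2 fold change divided by the square root of F. For the isozyme ratios, log2 of (reads + 0.5) per kilobase of coding sequence was compared between 4 and 16 libraries by an exact two-sided permutation test enumerated in numpy 2.4.6, adjusted over 95 tests. Means of level are mean ± SD over 4 libraries. Both tests were checked on simulated data. In both checks at most 1 strain was shifted and the others had equal means, so differences among those were not covered.

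Alternatives were DESeq2 1.42.0 and its size factors, other filters on low counts, thinning, a gene length correction (4 spline degrees of freedom), blocks by replicate number or library-number group, 1 library-number group alone, and leaving out each library. Leaving out RM11-1a replicate 2 for the listed genes, the pairs and the family shares was added after the data were seen. Gene sequences and lengths are from the RefSeq R64 annotation, which matched 6047 genes. For the other genes overlaps with members were not checked. The members and lists were chosen with earlier results of these data known. Values are given in every library for members called among strains or in a strain contrast and for both genes of each ratio called, and of the regulators and neighbouring genes those called among strains are named. MSN2 and MSN4 are named besides, after values were seen. The zinc, stress and glucose-repression lists, VEL1, ZRT1, ZRT2, ZPS1, DPP1 and HSP12 were chosen after values were seen. A library's smallest visible level, 3 counts, is 0.131 to 2.29 CPM, and it covers counting error only. PCR copies are counted as separate reads.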

Additional observations from a re-analysis of the deposited data

Results flagged for a closer look

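Of 197 sets of 4 libraries looked at, 1 gene or ratio in 1 strain each, 16 had a highest or lowest library far from the other 3. Chance flags about 5% of such sets. Each value is set against the range of the other 3 libraries of its strain.

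Of these, 6 were in BY4741 or W303. HXK2 stood at 1104 normalised CPM in W303 replicate 2 (others 822 to 863). GLK1 was 2.68 in BY4741 replicate 3 (49.1 to 86.5), and PGI1 was 579 in the same library (791 to 827). ADH5 was 134 in W303 replicate 3 (116 to 118). In that W303 library ALD5 was 258 (193 to 199.5) and ALD3 was 13.5 (18.1 to 19.2).

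CEN.PK2 replicate 4 was far below the rest of its strain for PGK1 at 509 (2704 to 3612) and for ADH5 at 18.1 (77.4 to 90.7). It was also lowest for the log2 ratio ADH3/ADH1 at -7.22 (-5.22 to -4.82). FBA1 was 15329 in CEN.PK2 replicate 3 (9813 to 10455). CEN.PK2 replicate 4 is the library with the lowest median over the longer members.

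In D273-10B, TPI1 was 4665 in replicate 1 (8099 to 8296) and GPD2 was 64.04 in the same library (5.98 to 8.39). ADH4 was 3810.3 in D273-10B replicate 3 (5857 to 6218), still above every library of the other strains. In RM11-1a, GPM1 was 2316 in replicate 3 (1551 to 1627) and ALD4 was 134 in replicate 1 (246 to 268). The log2 ratio ADH2/ADH1 was -2.45 in RM11-1a replicate 2 (-1.70 to -1.61), the library whose HO level goes against its label, and this value lies between the rest of RM11-1a and the other strains.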

How the results depend on the processing

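Of 41 single calls, 10 held under every alternative run and 0 changed direction: ADH1, ADH2, ADH3 and ADH4 in D273-10B, ALD3, GPP2, ADH2/ADH1, ALD2/ALD3 and GPP2/GPP1 in RM11-1a, and ALD5 in W303 were the ones that held. Ratio calls are not comparable here: those of RM11-1a had 25 alternatives, and those of other strains 26. The added one was the group numbered from 69, where no ratio passed. ADH4/ADH1 and ADH5/ADH1 in D273-10B and ALD5/ALD4 in W303 were lost only there. Members called among strains numbered 13, and 11 to 21 with 1 library left out. Counts against the mean of the other strains moved more. In BY4741 the count of 2 became 5 with DESeq2, 1 within libraries numbered from 66, 4 with the gene length correction, and 1 to 4 with 1 library left out. In CEN.PK2 the 3 became 6 with DESeq2, 0 within 69, 5 within 66, 5 with the length correction, and 2 to 5 with 1 left out. In D273-10B the 9, of which 1 was higher and 8 lower, became 18 within 69 (3 higher, 15 lower), 12 within 66 (8 higher, 4 lower) and 4 to 17 with 1 left out. In RM11-1a the 8 became 3 with the library-number block, 3 within 66 and 3 to 9 with 1 left out; RM11-1a has no library numbered from 69, so no value could be had there. In W303 the 2 became 4 with DESeq2, 4 within 69 and 1 to 7 with 1 left out. The 17 ratio calls became 0 within 69, where few libraries leave too few choices for the exact test to pass, and 8 to 18 with 1 left out. The cause of the other changes was not tested.

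Replicate numbers are not stated to pair libraries: over 40 same-number pairs the correlation of deviations ran from -0.377 to 0.399, 14 were over 0.1, and 4 of 20 libraries correlated best with their own number. With the replicate block 12 members were called among strains, 2 in BY4741, 2 in CEN.PK2, 9 in D273-10B, 8 in RM11-1a and 3 in W303, and 20 ratio tests passed. The limits are depth, at most 2.29 CPM for 3 counts, library-number groups that overlap strains unevenly, medians of the longer members that differ from those of the shorter ones, most in CEN.PK2 replicate 4, and 1 line per strain. All strains were counted on the same gene list. How sequence differences between strains change the reads counted, as for near-copies, was not tested.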
